A study of Homo sapiens with 2 samples.

Results

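The cytosolic ribosome reads messenger RNA and joins amino acids into protein. Its large subunit, built from RPL proteins, forms the peptide bonds, and its small subunit, built from RPS proteins, decodes the message. The messenger RNAs of ribosomal proteins are abundant in growing cells and begin with a run of pyrimidines, the 5′ terminal oligopyrimidine (TOP) tract, through which their translation follows nutrient signalling by mTOR. Several of the genes also carry small nucleolar RNAs in their introns, and many have processed pseudogenes elsewhere in the genome.

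Cytosolic ribosomal protein names were described in 2 RNA libraries of 95D cells, a wild-type human lung cancer cell line. Cells grew for 24 h in complete medium and then for 48 h in medium that lacked either glucose or glutamine, with dialysed serum in both. The libraries are called glucose-free and glutamine-free here. Each condition had 1 library, so differences between them lack replicates and were not tested. The title of the series names RNA immunoprecipitation with ALKBH5, but the labels of both libraries describe total RNA depleted of ribosomal RNA, and neither says that it is a pull-down or an input. The header of the glucose-free values abbreviates the condition as Glu, and the description of the glutamine-free sample names the column of glucose values. Each library was assigned by its title and treatment label, and every direction given here rests on that.

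Members were chosen by gene symbol alone, as RPL, RPS, RPLP or RPSA symbols, with no measured value in the rule beyond the presence of a number. That presence depends on the values, since every row with a number was above 0 in at least 1 library. The files head their name column as long non-coding RNA genes and give 1 transcript per row, without identifiers. Of 18663 transcript rows with a value, 183 belonged to the ribosomal proteins, and of 9253 names, 62. The large subunit accounted for 38 names and 118 rows, the small subunit for 24 names and 65 rows. A further 6 listed names, RPL24, RPL29, RPL36, RPS9, RPS18 and RPS25, had no value in any row. Whether a row holds reads of the protein-coding messenger RNA, of a retained-intron or other non-coding transcript, or of a pseudogene cannot be told here, so values are those of the rows and not of the messenger RNAs.

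The number of reads in the listed rows differed strongly between the libraries. The listed rows held 42827 recovered reads in the glucose-free and 1442570 in the glutamine-free library, 33.7-fold apart. A recovered read is the deposited value, less a small offset, divided by the step in which the low values climb. The steps were 1.26 and 0.791 and their product was 1.00, so the deposited scale multiplies the first library up and the second down. The steps differ only 1.60-fold, so the 33.7-fold gap is that of the listed rows. It is no measure of sequencing depth, which is not given here. Of the epithelial and lung markers KRT8, KRT18, KRT19 and NAPSA carried a value, 4 of 10, with no value for EPCAM, CDH1 or NKX2-1, and KRT8 and NAPSA were above 0 in both libraries. Of 3 mesenchymal markers 2 carried a value. FN1 stood at 344 in the glucose-free and 963 in the glutamine-free library, and VIM at a listed 0 and 75.9. None of the 4 leukocyte and 3 erythroid markers carried a value.

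Ribosomal protein rows more often carried a value than other rows. Of 248 listed rows, 183 did, or 73.8% (95% Wilson interval 68.0 to 78.9%), against 20.3% of all listed rows. Wilson intervals of shares of reads cover counting error of reads only, since each condition had 1 library. Reads were not tagged by molecule, so copies of a molecule count as separate reads and these intervals can be too narrow. Intervals over names or rows treat these as independent, although rows of a name can share reads, and describe these libraries only. A name had a median of 2 rows with a value (1 to 9), against a median of 1 over all names; RPL3 and RPL13A had the most, 9 each, and 18 names had 1.

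The gene starts of members that the results turn on are shown first, because the TOP tract is the start sequence this gene family is known for. Each line gives 30 bases of the RefSeq sequence on the gene's own strand, 12 before and 18 from the annotated start, with capitals for the uninterrupted pyrimidine run that opens the transcript with a C. Coordinates are those of GRCh38.p14.
RPLP0: cgggcgcgaggcCCTTCTCTCgccaggcgt
RPSA: cctgccgcctgtCTTTTCCgtgctacctgc
RPL13A: caaaacctcctcCTTTTCCaagcggctgcc
RPL26: cagcgtgtagttCTCTTCCCTTTTgcggcc
RPS14: ccccctcccactCTCTCTTTCCggtgtgga
RPS27A: gcggcgttcttcCTTTTCgatccgccatct
RPL10: gcggaggagcgcCTCTTTCCCTTCggtgtg
RPL17: ctttccctaagcagcctgaggtgagtgttt
The windows lie at chr12:120201094-120201123 on the minus strand for RPLP0, chr3:39406708-39406737 on the plus strand for RPSA, chr19:49487596-49487625 on the plus strand for RPL13A and chr17:8383176-8383205 on the minus strand for RPL26. They lie at chr5:150449722-150449751 on the minus strand for RPS14, chr2:55232676-55232705 on the plus strand for RPS27A, chrX:154398365-154398394 on the plus strand for RPL10 and chr18:49492448-49492477 on the minus strand for RPL17. RPL10 and RPS27A have 3 annotated starts each, of which the 1 shown has the run. RPL17 is shown as an annotated start at which no such run opens, although a pyrimidine run led by a C begins its window, before that start. RPL10 is shown because it was the highest name of those listed at 0 in the glucose-free library.

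A C at the annotated start followed by at least 4 pyrimidines was searched on the transcribed strand. Of the 62 names, 50 had a promoter entry of 300 bases, and 34 of these, or 68.0%, had the run at 1 or more of their annotated starts. Over all 27305 symbols with an entry the share was 5.14%. Among mitochondrial ribosomal proteins, which serve a separate ribosome, 6 of 69 symbols had it. Of the ribosomal protein names above 0 in the glucose-free library, 9 of 11 with an entry had the run, and of those listed at 0 there, 25 of 39. Allowing the run to begin within 5 bases of the start gave 9 of 11 and 31 of 39, with 25.2% over all symbols. These are matches of letters in RefSeq windows; which start the measured rows used is not known.

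All 62 names and all 183 rows were above 0 in the glutamine-free library, where 99.5% of all names and 99.5% of all rows were. No row with a value was at 0 in both libraries. The 155 ribosomal protein rows at 0 in the glucose-free library thus carry a value through the glutamine-free library alone. The full counts in the glutamine-free library largely follow from that. In the glucose-free library 15 of 62 names were above 0, or 24.2% (15.2 to 36.2%), against 4.25% of all names. By rows it was 28 of 183, or 15.3% (10.8 to 21.2%), against 2.54% of all rows. Ribosomal protein names also stood higher in the glutamine-free library, with a median value of 69.2 against 20.5 over all names above 0. At or above 69.2, 11 of 31 ribosomal protein names were above 0 in the glucose-free library, against 10.5% of all names at that level; below it, 4 of 31 were, against 2.47%. By subunit, 8 of 38 large subunit names, 21.1% (11.1 to 36.3%), and 7 of 24 small subunit names, 29.2% (14.9 to 49.2%), were above 0 there, with intervals that overlap. A name listed at 0 among so few reads is not shown to be absent from the cells, and in bulk RNA fewer expressing cells and less RNA per cell cannot be told apart.

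**Figure D1:**
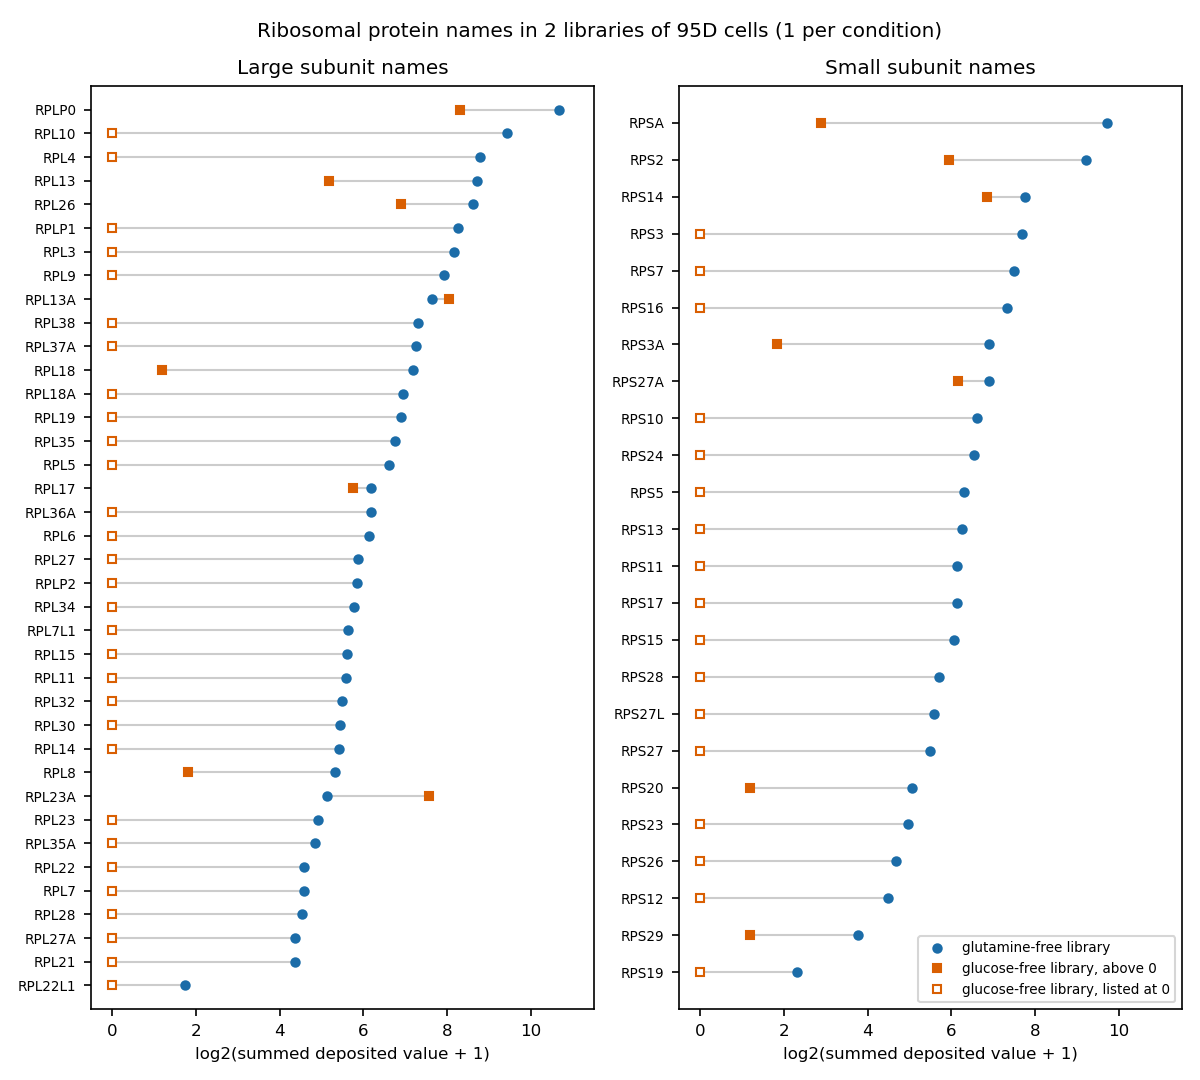
Deposited values of the 62 ribosomal protein names, summed over rows, on the log2(value + 1) scale, in the glutamine-free (circles) and the glucose-free library (filled squares above 0, open squares listed at 0), large subunit on the left and small subunit on the right. The 15 filled squares run from 1.29 to 317 in value, and for RPL23A and RPL13A the square lies right of the circle.

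The stalk of the large subunit, RPLP0 with RPLP1 and RPLP2, recruits elongation factors. RPLP0 was the highest ribosomal protein name in both libraries, at 317 in the glucose-free and 1626 in the glutamine-free library. RPLP1 stood at 305 and RPLP2 at 56.9 in the glutamine-free library and at a listed 0 in the glucose-free one. Of the stalk, the glucose-free library thus showed RPLP0 alone. RPSA, a protein of the small subunit also known as a laminin receptor, stood at 6.36 there on 5 recovered reads and at 843 in the glutamine-free library.

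Among other large subunit names, RPL13A, which also has a role in translational silencing by interferon-gamma, stood at 262 in the glucose-free and 198 in the glutamine-free library. RPL23A, which lies near the exit of the peptide tunnel, stood at 188 and 34.0. RPL26, known for binding the messenger RNA of p53, stood at 119 and 389.9. RPL17 stood at 53.1 and 71.9 and RPL13 at 35.4 and 418. RPL8 rested on 2 reads in the glucose-free library, at 2.55 against 38.7, and RPL18 on 1 read, at 1.29 against 145. The large subunit names in the glucose-free library therefore fell into a high set, led by RPLP0, RPL13A, RPL23A and RPL26, and a pair that rested on almost no reads.

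Among small subunit names, RPS14, known for its loss in the 5q- form of myelodysplastic syndrome, was the highest in the glucose-free library, at 114 against 214 in the glutamine-free library. RPS27A, made as a fusion with ubiquitin, stood at 70.8 and 118, and RPS2 at 60.7 and 596. RPS3A stood at 2.55 on 2 reads and 118, RPS20 at 1.29 on 1 read and 32.4, and RPS29 at 1.29 on 1 read and 12.6. Counted by name, 5 of the 15 rested on 1 or 2 reads in the glucose-free library, and 10 remained with a minimum of 3 reads.

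The 47 names listed at 0 in the glucose-free library ranged from 2.35 to 685 in the glutamine-free library, with a median of 57.7. The 15 names above 0 in both had a median of 145 there (12.6 to 1626), so the ranges overlap. RPL10, which sits close to the site of peptide bond formation, stood at 685, RPL4 at 443, RPL3, next to the peptidyl transferase centre, at 285 and RPL9 at 242. RPS3, which lines the messenger RNA entry, stood at 205 and was the highest small subunit name listed at 0 in the other library. The lowest names of the glutamine-free library were RPL22L1 at 2.35, RPS19, a gene mutated in Diamond-Blackfan anaemia, at 3.94, RPS29, RPL21 at 19.7 and RPL27A at 19.8. Values are not divided by transcript length, so this order is one of reads and not of molecules.

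Paralogs with a value on both sides were listed at 0 in the glucose-free library throughout. Only 15 of 62 ribosomal protein names and 4.25% of all names were above 0 there. Each of these paralogs also stood below the ribosomal protein median of 69.2 in the glutamine-free library, so nothing particular to paralogs is read from this. In the glutamine-free library RPL7 stood at 22.9 and RPL7L1 at 49.0, RPL22 at 22.9 and RPL22L1 at 2.35, and RPS27 at 44.2 and RPS27L, a p53 target, at 46.7. How many molecules each stands for cannot be compared, since the lengths of the rows are not known.

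As deposited, 57 of 62 ribosomal protein names were 2-fold or more higher in the glutamine-free library on the log2(value + 1) scale, where 97.4% of all names were, and 1, RPL23A, was 2-fold or more higher in the glucose-free library, where 1.42% of all names were. The first count is close to that of all names, and 47 of the 57 names were listed at 0 in the glucose-free library. Those 47 carry a value through the glutamine-free library alone, so their place in the count largely follows from that. Among the 15 names above 0 in both, 10 were 2-fold or more higher in the glutamine-free library, against 42.2% of the 351 names above 0 in both, and 1 of 15 was higher in the glucose-free library, against 25.4%. Their median log2 ratio, glutamine-free minus glucose-free, was 2.58 (95% order-statistic interval 0.73 to 3.87) as deposited and -1.10 with each library rescaled to 1000000, so its direction depends on the scaling. After rescaling, 3 of the 15 names were 2-fold or more higher in the glutamine-free library, against 5.98% of all names above 0 in both, and 9 of 15 in the glucose-free library, against 86.9%. The 3 were RPSA, RPL18 and RPS3A, which rested on only 5, 1 and 2 recovered reads in the glucose-free library. Over all 62 names, 9 were then 2-fold or more higher in the glucose-free library, against 3.75% of all names, and 50 in the glutamine-free library, against 96%. With log2 ratios centred on the median of all names, 37 of 62 lay 2-fold or more above that median, against 31.5% of all names. All of the 37 but RPSA and RPL18 were listed at 0 in the glucose-free library, so their ratios restate their glutamine-free values. A further 11 lay 2-fold or more below the median, against 29.1%. Those 11 include RPL22L1 and RPS19, listed at 0 in the glucose-free library, so lying below the median does not mean higher there. Over all names above 0 in both, the median as deposited was 0.61 (0.34 to 0.88). With the 5 names on 1 or 2 reads left out, a choice made after the data were seen, the ribosomal protein median was 1.30.

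For single names, rescaling lowers the log2 ratio by up to 4.40, and several changed direction with it. RPL23A was lower in the glutamine-free library under both scalings, at a log2 ratio of -2.44 as deposited and -6.82 after rescaling. It had 149 recovered reads in the glucose-free and 43 in the glutamine-free library, more in the library with far fewer reads in the listed rows. RPL13A was at -0.40 and -4.79. RPSA was higher in the glutamine-free library under both, at 6.84 and 2.64. RPLP0 was at 2.35 as deposited and -2.04 after rescaling, RPL26 at 1.71 and -2.68, RPS2 at 3.27 and -1.10, and RPL13 at 3.52 and -0.83. Each of the latter 4 thus changed sides, as 9 of the 15 names did in all.

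Single transcript rows were described next. Of the 28 rows above 0 in both libraries, 19 were 2-fold or more higher in the glutamine-free library as deposited, against 30.1% of all rows above 0 in both, and 7 were 2-fold or more higher in the glucose-free library, against 40%. After rescaling the counts were 7, against 4.27% of all such rows, and 16, against 89.9%. Each of the 7 rested on 10 or fewer recovered reads in the glucose-free library. In the glucose-free library 9 of the 28 stood at 20 or more, a limit set after the values were seen, against 77% of all rows above 0 there. They belonged to 9 names, 1 row each: RPLP0 at 274, RPL13A at 257, RPL23A at 188, RPL26 at 119, RPS14 at 114, RPS27A at 69.5, RPS2 at 60.7, RPL17 at 51.9 and RPL13 at 34.2. These 9 rows held 94.6% (92.97 to 95.83%) of the ribosomal protein reads of the glucose-free library and 6.10% (5.69 to 6.54%) of those of the glutamine-free library. Because the rows were picked by their glucose-free value, their large share there follows from the choice and is a description only. In 8 of the 9, all but that of RPL26, the deposited value was higher in the glucose-free library, against 76.2% of all rows at 20 or more there. The same 8 rows also had more recovered reads in the glucose-free library, without any scaling, against 66.8% of all such rows. Rows picked high in a library tend to stand higher there, so nothing particular to ribosomal proteins is read from these counts. The row of RPL13A had 203 reads there and 15 in the other library, that of RPLP0 217 and 113, that of RPS14 90 and 51, and that of RPS27A 55 and 52.

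The other 19 rows above 0 in the glucose-free library stood below 20 and held 53 reads in all. In 1 of the 19, a row of RPSA at 1.29 against 0.77, the glucose-free value was the higher, against 31.2% of all rows below 20. The rest of the 19 were led in the glutamine-free library by the main row of RPLP0, at 12.7 in the glucose-free and 1202 in the glutamine-free library, followed by a row of RPSA at 5.08 and 229 and a further row of RPLP0 at 17.7 and 197. By read number, 12 rows had 1 read and 3 had 2. Rows on 1 or 2 reads were thus 15 of 28, or 53.6% (35.8 to 70.5%), against 12.2% of all rows above 0 in that library. No ribosomal protein row was above 0 in the glucose-free library alone, 0 of 28, where 20.9% of all rows above 0 there were.

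**Figure D2:**
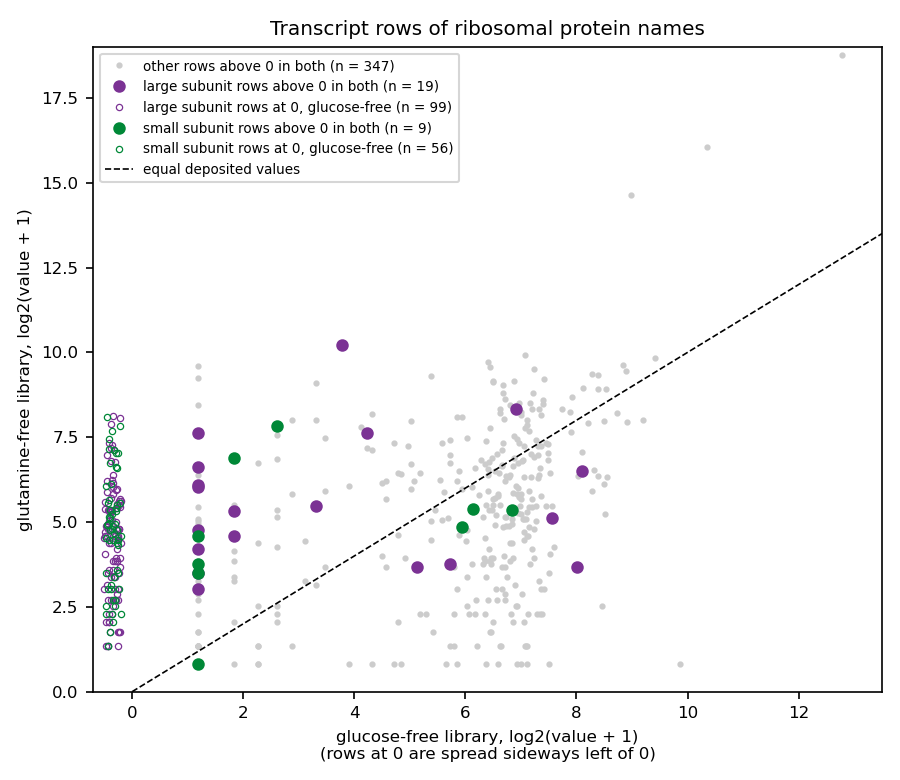
Deposited value of each transcript row in the glucose-free (x) and glutamine-free library (y), both as log2(value + 1); filled coloured points are the 28 ribosomal protein rows above 0 in both, open points the rows at 0 in the glucose-free library, grey points other rows above 0 in both, and the dashed line marks equal values. The filled points form a group at few reads on the left, above the line except for 1 row, and a group of 9 on the right, of which 8 lie below the line.

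**Figure D3:**
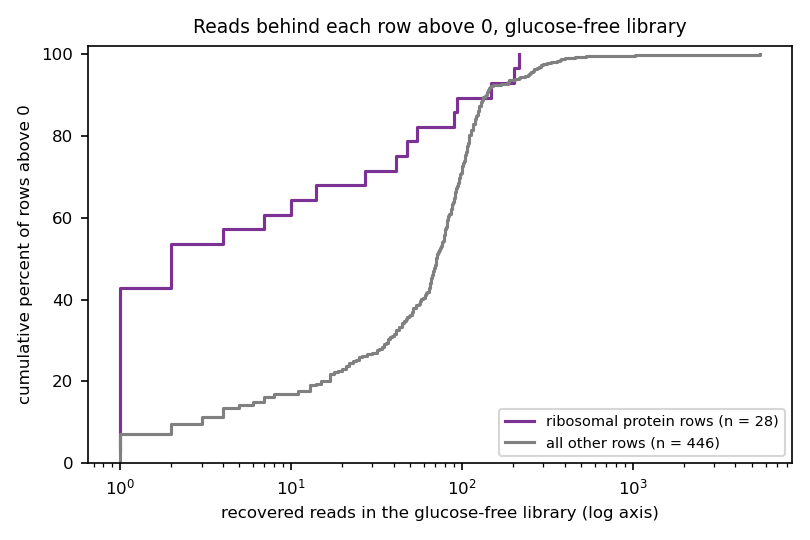
Cumulative percent of rows above 0 in the glucose-free library by their number of recovered reads (log axis), for the 28 ribosomal protein rows and the 446 other rows. The ribosomal protein line reaches 53.6% at 2 reads, where the line of other rows is at 9.64%.

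The rows that made up a name differed between the libraries. Of the 15 names above 0 in both, 11 had more than 1 row, and the same row was the highest in both libraries in 2 of them, RPL26 and RPL18, against 38.8% of all 276 such names. The leading glucose-free rows of RPL18 and RPS20 rested on 1 read each and that of RPSA on 4. In the 8 names whose leading row stood at 20 or more, the same row was the highest in both in 1, RPL26. For RPLP0 the row that gave 86.4% of its glucose-free value gave 5.50% of its glutamine-free value, and the row that gave 73.9% in the glutamine-free library gave 3.99% in the other. For RPL13A a single row gave 98.0% of the glucose-free value and 15 of the 250 reads of the name in the glutamine-free library, while the other 4 of its rows above 0 there had 1 read each. For RPL13 the corresponding percentages were 96.4 and 2.83, for RPL17 97.6 and 17.6 and for RPS27A 98.2 and 34.9. RPS2 had 1 row above 0 in the glucose-free library, which ranked sixth of its 7 rows in the other library and gave 4.65% of its value.

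In the glutamine-free library many names were spread over several rows. The highest row gave a median of 55.6% of the value over the 44 names with more than 1 row, from 23.4% for RPS2 to 98.5% for RPL38. The 5 rows of RPL10 stood at 281, 266, 124, 11.8 and 2.35, and the 4 rows of RPL4 at 237, 138, 41.1 and 26.9. RPLP1 had a pair of rows at 161 and 143. The 9 rows of RPL3 ran from 2.35 to 69.6, with no row that held the larger part.

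**Figure D4:**
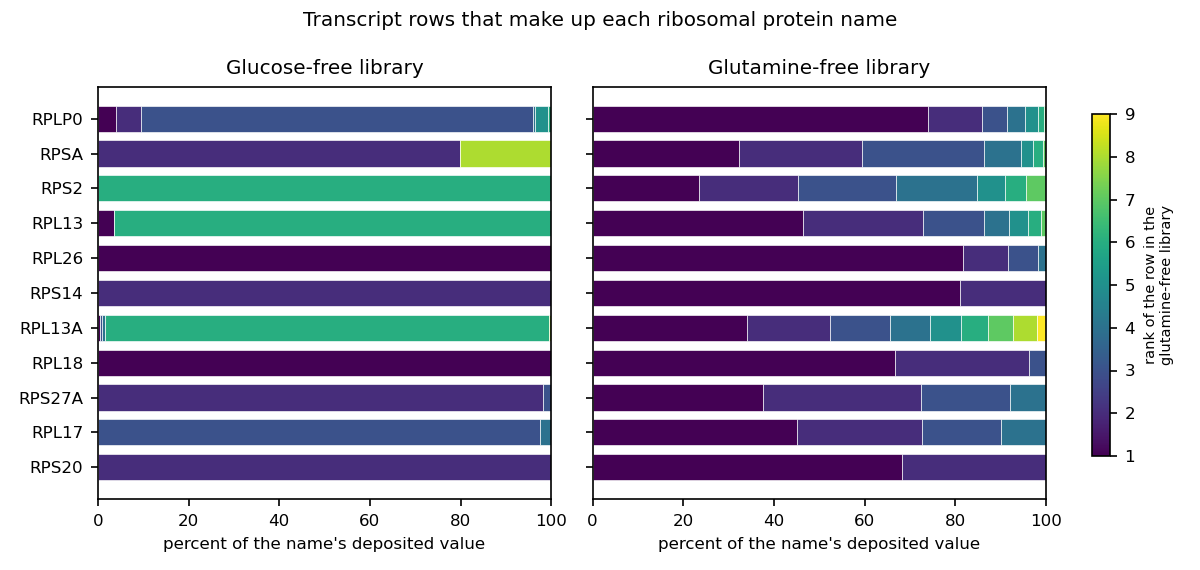
Percent of each name's deposited value given by each of its transcript rows in the glucose-free (left) and glutamine-free library (right), for the 11 names above 0 in both with more than 1 row; colour gives the row's rank in the glutamine-free library. The leading row on the left is also the darkest, rank 1, only for RPL26 and RPL18.

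Within a library the share of reads needs no scaling between libraries. Ribosomal protein names held 977 of the 42827 reads of the glucose-free library, or 2.28% (2.14 to 2.43%), and 12171 of the reads of the glutamine-free library, or 0.844% (0.829 to 0.859%). XLOC_220679, a locus without a symbol, was the most abundant name in both and took 13.0% and 38.8% of the reads. Without it the ribosomal protein shares were 2.62% (2.46 to 2.79%) and 1.38% (1.35 to 1.40%). The share was the higher one in the glucose-free library both ways. That was not particular to these names. Mitochondrial ribosomal proteins held 0.329%, all in MRPL38, against 0.0667% in the glutamine-free library. The 21 other names known to carry a TOP tract held 3.59% against 0.576%. Ribosomal protein symbols that the pattern misses, at 0.0163% against 0.0743%, and the pseudogene name, at 0% against 0.00118%, went the other way. With 1 library per condition these intervals describe the libraries, and the conditions were not compared by a test. The 3 highest rows, of RPLP0, RPL13A and RPL23A, held 58.2% (55.1 to 61.3%) of the ribosomal protein reads of the glucose-free library, and the 3 highest rows of the other library 18.7% (18.03 to 19.41%).

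The large subunit held 79.2% (76.6 to 81.6%) of the ribosomal protein reads of the glucose-free library and 66.3% (65.5 to 67.1%) in the glutamine-free library. Without RPLP0, the most abundant name in each, the shares were 72.0% and 59.4%. The 3 rows that led the glucose-free library were all of the large subunit. As shares of the whole library, the large subunit took 1.81% and 0.559% and the small subunit 0.474% (0.413 to 0.544%) and 0.284% (0.276 to 0.293%). The median of the small subunit names above 0 in the glutamine-free library, 72.3, was close to that of the large subunit names, 63.2, with ranges of 3.94 to 843 and 2.35 to 1626.

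**Figure D5:**
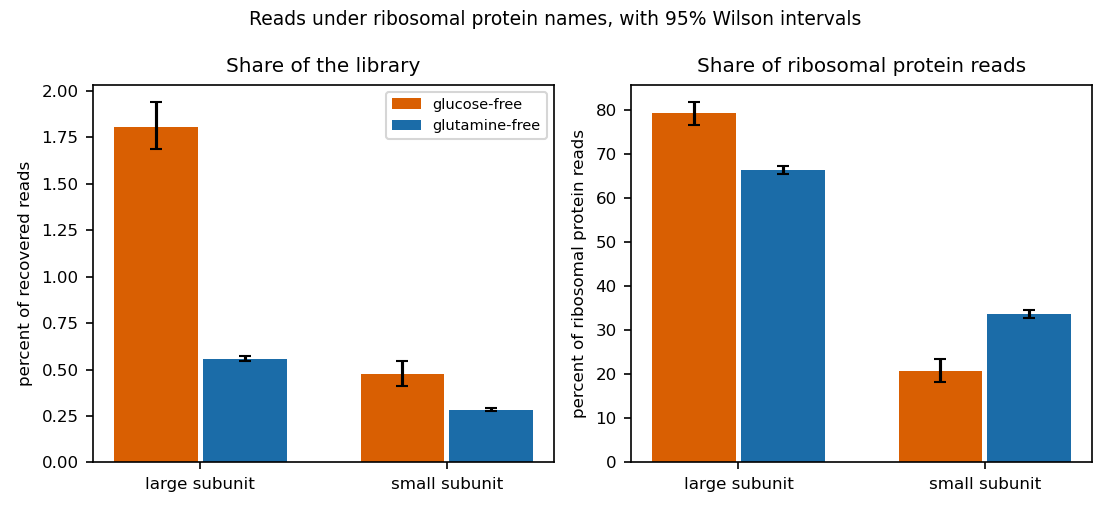
Percent of all recovered reads of a library (left) and of its ribosomal protein reads (right) that stood under large and small subunit names, with 95% Wilson intervals for counting error; orange is the glucose-free and blue the glutamine-free library. The large subunit bar stands at 79.2% in the glucose-free and 66.3% in the glutamine-free library on the right.

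Features of the genes in RefSeq were set beside the measurements. Small nucleolar RNA genes lie inside 8 of the 15 genes above 0 in both libraries and inside 16 of the 47 listed at 0 in the glucose-free library. No share over all genes stands beside these counts. Among the genes of the 9 highest glucose-free rows, RPL13A holds 4, SNORD32A, SNORD33, SNORD34 and SNORD35A. RPL23A holds 4, RPL17 holds 3, RPS2 holds 2 and RPL13 holds 1, whereas RPLP0, RPL26, RPS14 and RPS27A hold none. The 15 names had a median of 33 pseudogene symbols (5 to 95) and the 47 a median of 13 (0 to 137). RPL23A had 95, RPSA 74 and RPS2 55; RPLP0 had 12 and RPS14 10, and RPL21, with 137, was listed at 0 in the glucose-free library. The 15 also had more rows with a value, a median of 4 (1 to 9) against 2 (1 to 9). The part of pseudogene reads, of small nucleolar RNA reads and of the number of rows in these values was not tested.

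Other genes of the translation machinery were set beside the ribosomal proteins. Of 21 names whose messenger RNAs or host transcripts are known to carry a TOP tract, 21 had a value and 6 were above 0 in the glucose-free library, against 4.25% of all names. EEF1A1, which delivers aminoacyl-tRNA to the ribosome, stood at 951 and 2100, NPM1, a nucleolar chaperone, at 397 and 719.7, and PABPC1, which binds poly(A) tails, at 163 and 799. EIF3E stood at 178 and 206, GAS5 at 106 and 678, and SNHG5, which hosts small nucleolar RNAs, at 147 and 135. As with the ribosomal proteins, some of these rows rested on few reads: 6 of the 18 rows above 0 in the glucose-free library had 1 or 2 reads, 5 of them of SNHG5. EEF2 at 143, EEF1G at 422 and ZFAS1 at 510.1 were listed at 0 in the glucose-free library. As deposited, 0 of the 21 names were 2-fold or more higher in the glucose-free library, against 1.42% of all names, and 18 in the glutamine-free library, against 97.4%. After rescaling, all 6 names above 0 in both were 2-fold or more higher in the glucose-free library, from a log2 ratio of -1.72 for GAS5 to -4.50 for SNHG5, against 3.75% of all names and 86.9% of names above 0 in both. The other 15 were 2-fold or more higher in the glutamine-free library, as were 96% of all names. They were listed at 0 in the glucose-free library and carry a value through the glutamine-free library alone, so their side was fixed by that.

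Mitochondrial ribosomal proteins had 27 names with a value, and 1 was above 0 in the glucose-free library, MRPL38 at 178 against 52.1 in the glutamine-free library. That is 3.70% of the 27, near the 4.25% of all names, and their median value in the glutamine-free library was 17.4, below the 69.2 of the cytosolic names. Of 5 ribosomal protein symbols that the pattern misses, 3 had a value and 1 was above 0 in the glucose-free library. That was RACK1, a scaffold on the head of the small subunit, at 8.87 on 7 reads and 745 in the glutamine-free library; FAU, which encodes a ribosomal protein fused to a ubiquitin-like domain, stood at 0 and 16.6. A single ribosomal protein pseudogene name carried a value, RPL23AP7, listed at 0 in the glucose-free and at 13.4 in the glutamine-free library.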

How the data were processed

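The labels give 2 samples, 1 per condition. The submitters' processing notes name HISAT2 2.0.5, StringTie and hg38, without roles; counting tool, annotation, filters and scaling are not stated in the labels used here. The deposited values carry no unit per the file headers. They were recorded as a score, since the authors deposited scaled read numbers that are not whole; marks without a number were left out and values under 1e-09 set to 0. Reads were recovered by a fitted step and offset per library; up to 1000 reads, 100% of the values (472 and 18536) came within 0.1 of a whole read. The whole-series table repeats these values and was not used.

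Rows were summed per name in Python 3.11.15 with pandas 2.3.3. Ratios are log2(value + 1), which understates differences of low names, and 2-fold is a description. Intervals of shares are 95% Wilson intervals (statsmodels 0.14.6) and those of median log2 ratios are order-statistic intervals over names. Recovery of reads, ratios and intervals was tested on simulated data. Names were matched to RefSeq GRCh38.p14, all 62 of them. The named genes are those above 0 in the glucose-free library, the highest and lowest of the other, stalk proteins, RPSA and paralog pairs; names outside this rule (RPS3, RPL38, gene features and list members) were chosen after their values were seen. Members and lists were chosen with earlier results of these data known. Alternatives concerned scaling, pseudocount, thresholds, low values and membership.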

Additional observations from a re-analysis of the deposited data

How the results depend on the processing

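With each library rescaled to 1000000, the median log2 ratio of the ribosomal protein names above 0 in both libraries turned from 2.58 to -1.10, and those of RPLP0 (-2.04), RPS2 (-1.10), RPL13 (-0.83), RPL26 (-2.68), RPL8 (-0.46), RPS29 (-1.03), RPS14 (-3.48), RPS27A (-3.65) and RPL17 (-3.94) turned from positive to negative. This setting divides by the totals of the listed rows, which differ 21.1-fold. The median ranged from 1.30 to 3.20 under the other settings. Names at least 2-fold higher in the glucose-free library went from 1 to 9 after rescaling (3.75% of all names). With log2 ratios centred on the median of all names, 11 lay 2-fold or more below it (29.1% of all names), among them names listed at 0 in the glucose-free library. Names at least 2-fold higher in the glutamine-free library numbered 57, and 37 lay that far above the median after centring (31.5% of all names), nearly all listed at 0 in the glucose-free library. Among names above 0 in both the count was 10, where fewer names enter. Rows above 0 in the glucose-free library fell from 28 to 13 with at least 3 reads or a value of at least 5. Without the most abundant name the shares of reads were 2.62% and 1.38%, and adding the names that the pattern misses gave 0.918% in the glutamine-free library. Without RPLP0 the large subunit shares were 72.0% and 59.4%. A pseudocount of 0.1 moved none of the 15 names above 0 in both across 2-fold. Ordering names by value over protein length was not run, because the tables used here hold no protein lengths. No paired analysis was possible because each condition has 1 library, and for the same reason none could be left out. The small number of glucose-free reads in the listed rows, 42827, limits what a listed 0 shows there.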
